A study of Homo sapiens with 18 samples.

Results

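Nuclear receptors are transcription factors, most of which are switched by small lipid-soluble ligands such as steroid and thyroid hormones, retinoic acid, fatty acids, oxysterols and bile acids. The 46 receptor genes described here were taken as a fixed list of family symbols, and all 46 were found by Ensembl gene ID among the 60612 rows of the deposited count table. In 44 of them at least 1 of the 12 libraries used had a count.

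The libraries hold polyA RNA of human cell lines that received either a control plasmid, coding for the green fluorescent protein mNeonGreen, or an EXACT1 plasmid, coding for mNeonGreen together with a miRNA of that name. The study concerns self-regulating gene therapy for Rett syndrome. HepG2 is a liver cancer line labelled as hepatocellular carcinoma, and SH-SY5Y is a neuroblastoma line. Each line had 3 control and 3 EXACT1 libraries, and a line stands for 1 tumour, not for its tissue. HepG2 cells received 100 ng of plasmid per well by lipid transfection, whereas SH-SY5Y cells were nucleofected, so line and transfection method cannot be told apart in any comparison between the lines. No group was left untransfected. HEK293A libraries of the same table were not used, because their values did not follow their row IDs: across genes their Spearman correlation was 0.054 with HepG2 and 0.056 with SH-SY5Y, against 0.822 between HepG2 and SH-SY5Y. Nothing in the labels tells if the replicates of a group were grown apart, and a p-value here reflects the spread among its libraries, part or all of which may be technical. In bulk RNA, fewer cells that express a gene and less RNA per cell cannot be told apart.

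Many receptors bind DNA as pairs on repeats of a short half-site, and the retinoid X receptors (RXRs) are the shared partner of the retinoic acid, thyroid hormone, fatty acid, oxysterol, bile acid and drug-sensing receptors. In liver the family is known for control of bile acid, lipid and drug metabolism, with the bile acid receptor FXR (NR1H4) inducing the corepressor SHP (NR0B2). In sympathetic neuroblasts it is known for the response to retinoic acid, which drives differentiation of neuroblastoma cells.

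For 4 receptors that separated the lines, the sequence shown is the 250 bases before a RefSeq gene start on GRCh38.p14, chosen because receptor genes are themselves targets of receptors and of lineage factors. Capitals mark every match, on either strand, to 7 short motifs: the receptor half-site AGGTCA, its extended form AAGGTCA, the retinoic acid half-site GTTCAC, the E-box CACGTG, the hepatocyte factor HNF1 half-site GTTAAT, the homeodomain core TAATTA and the cyclic AMP element TGACGTCA. The windows for HNF4A (chr20:44400989-44401238, forward strand), NR1H4 (chr12:100503110-100503359, forward), NR5A1 (chr9:124507400-124507649, reverse) and RARB (chr3:25428013-25428262, forward) read as follows, 5′ to 3′.
HNF4A: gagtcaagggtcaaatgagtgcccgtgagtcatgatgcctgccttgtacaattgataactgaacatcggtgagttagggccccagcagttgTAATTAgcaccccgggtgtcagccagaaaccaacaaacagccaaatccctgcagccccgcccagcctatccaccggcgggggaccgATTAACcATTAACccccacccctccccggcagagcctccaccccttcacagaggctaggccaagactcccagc
NR1H4: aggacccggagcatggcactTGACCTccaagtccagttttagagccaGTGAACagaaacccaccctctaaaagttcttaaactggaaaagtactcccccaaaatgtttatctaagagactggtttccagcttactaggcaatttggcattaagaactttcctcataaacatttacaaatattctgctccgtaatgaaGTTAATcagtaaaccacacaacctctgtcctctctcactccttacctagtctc
NR5A1: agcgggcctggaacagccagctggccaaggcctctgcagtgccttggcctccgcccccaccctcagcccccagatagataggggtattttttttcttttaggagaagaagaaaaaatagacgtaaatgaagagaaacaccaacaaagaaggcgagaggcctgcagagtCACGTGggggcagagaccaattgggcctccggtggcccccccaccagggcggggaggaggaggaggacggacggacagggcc
RARB: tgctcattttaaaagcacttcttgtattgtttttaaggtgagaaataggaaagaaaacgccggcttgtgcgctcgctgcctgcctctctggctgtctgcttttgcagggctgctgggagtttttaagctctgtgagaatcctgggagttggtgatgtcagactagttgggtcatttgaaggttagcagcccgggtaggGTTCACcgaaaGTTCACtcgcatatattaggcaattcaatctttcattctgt
The HNF4A window held 2 HNF1 half-sites on the other strand, beginning 73 and 66 bases before the start, and a homeodomain core at 159. The NR1H4 window held 1 HNF1 half-site at 53, and, on the other strand, 1 receptor half-site at 230 and 1 retinoic acid half-site at 203. The NR5A1 window held 1 E-box at 82. In the RARB window, 2 copies of the retinoic acid half-site began 52 and 41 bases before the start, the direct repeat through which retinoic acid is known to induce RARB.

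These motifs are short and common. Of 35116 RefSeq windows of this length, 12.1% held AGGTCA, 3.44% AAGGTCA, 6.35% GTTCAC, 6.34% CACGTG, 6.23% GTTAAT, 4.35% TAATTA and 1.65% TGACGTCA. Every AAGGTCA contains an AGGTCA. The table matched 41 of the 46 receptors by symbol, with 96 windows, of which 15.6%, 5.21%, 9.38%, 6.25%, 11.5%, 4.17% and 2.08% held these motifs in the same order. The motifs and the windows printed were chosen after matches had been seen, 1 of several listed starts being shown for HNF4A and RARB. The bases just after the HNF4A start shown were not found in a GENCODE 29 transcript of the gene. A match is a run of letters and says nothing of whether a factor binds there.

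HepG2 libraries totalled 70897097 to 77100150 counts, and SH-SY5Y libraries 66056962 to 72587614. The lines carried their own marker genes, TH apart. The summed level of 10 hepatocyte markers was 98022 to 105313 CPM (counts scaled to a common library total) in HepG2 and 241 to 307 in SH-SY5Y. Of these markers 8 lay above 1 CPM on average in SH-SY5Y, ALB highest at 92.1 to 124 CPM against 26463 to 40966 in HepG2. The source of these levels in SH-SY5Y, and whether it adds to low receptor levels, was not tested. The sum of 10 sympathetic neuroblast markers was 3.73 to 5.83 CPM in HepG2 and 5684 to 7424 in SH-SY5Y. Of them 9 lay above 1 CPM on average in SH-SY5Y and 2 in HepG2. TH was at 0 to 0.303 CPM in SH-SY5Y and 0.054 to 0.762 in HepG2. Fibroblast markers summed to 6.54 to 17.5 CPM in HepG2 and 413 to 565 in SH-SY5Y, where 7 of 8 lay above 1 CPM and PRRX1 was at 0; their part in any receptor's level was not tested. In 2 libraries the make-up of the RNA stood apart. The 86 ribosomal protein genes took 9.83% of the counts in HepG2 EXACT1 replicate 1 against 4.64% to 4.79% in the other 5 HepG2 libraries, and 13.0% in SH-SY5Y control replicate 2 against 5.47% to 5.92%.

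Receptor levels stood apart in these same libraries. In HepG2 EXACT1 replicate 1, 27 of the 29 receptors at 1 CPM or more lay outside the range of the other 5 libraries of the line, with log2 ratios to their median from -2.58 to 2.05. In SH-SY5Y control replicate 2 this held for 24 of 26, from -2.83 to 2.07. The oxysterol receptor NR1H2 was highest against the other libraries in both, at 69.8 CPM against 14.4 to 18.8 in HepG2 and 106 CPM against 24.6 to 26.5 in SH-SY5Y. The orphan receptor NR2C2 was lowest in both, at 6.46 CPM against 36.2 to 47.6 and 12.2 CPM against 69.8 to 91.5. Of 22 receptors measured in both libraries, 21 deviated in the same direction, and Pearson's r between the deviations was 0.94 across genes, which are not independent replicates. Longer transcripts tended to be low and shorter ones high, with r of -0.74 and -0.73 across genes against log2 transcript length. One library is an EXACT1 library and the other a control.

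**Figure D1:**
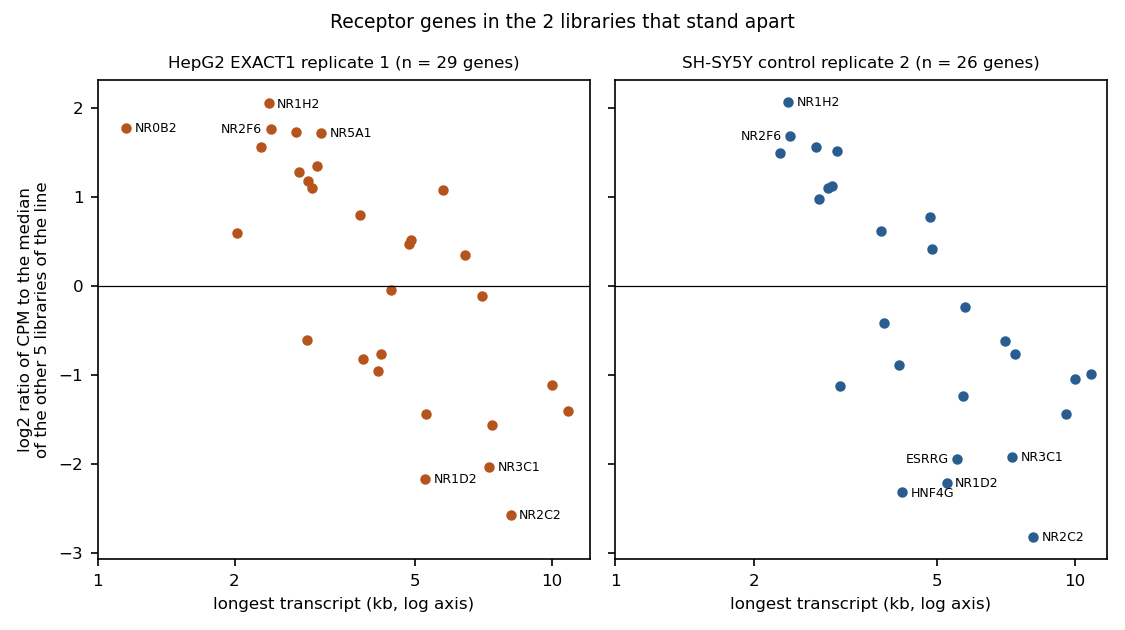
Log2 ratio of each receptor's CPM in the library that stands apart to the median of the other 5 libraries of its line (vertical), against the length of its longest transcript in kilobases (horizontal, log axis), for the 29 receptors in HepG2 and 26 in SH-SY5Y at 1 CPM or more. Short transcripts such as NR1H2 sit above 0 and long ones such as NR2C2 and NR3C1 below 0 in both lines.

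To compare levels between genes, the CPM of the library total were divided by the kilobases of the longest annotated transcript (GENCODE 29), which gives a level per kilobase. On that scale 28 receptors had a median of at least 1 in HepG2 and 21 in SH-SY5Y, 17 of them in both lines, and 14 stayed under 1 in both. NR0B1, a transcriptional repressor known from adrenal and gonad, had no count in any library, and NR2E1, a factor of neural stem cells, had 15 counts in SH-SY5Y and 0 in HepG2. In HepG2 the bile-acid-induced corepressor NR0B2 ranked first at 43.0 per kilobase (40.3 to 103.6 over 6 libraries), followed by the fat cell regulator PPARG at 34.8 (31.9 to 36.5) and the hepatocyte factor HNF4A at 34.2 (31.4 to 36.6). With this length the ranges of PPARG and HNF4A overlapped almost wholly, so it does not settle their order. NR2F6, a COUP-TF relative, came next at 24.5 (22.9 to 55.8), then NR5A1 at 20.3 (18.0 to 46.6). The 5 receptors with the highest medians in a line together took a median of 49.7% of the summed receptor level in HepG2 (47.6% to 62.9%) and 43.7% in SH-SY5Y (38.2% to 46.9%).

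The order was different in SH-SY5Y. NR2F6 ranked first at 26.6 per kilobase (22.5 to 62.9), then the clock repressor NR1D2 at 19.8 (3.31 to 22.0), RXRB at 19.8 (17.6 to 31.2), the neural patterning factor NR2F1 at 17.0 (10.8 to 22.1) and the retinoic acid receptor RARG at 16.0 (15.0 to 25.9). The ranges of NR1D2, RXRB, NR2F1 and RARG overlapped. That of NR2F6 lay just above those of NR1D2 and NR2F1 and overlapped those of RXRB and RARG. With the summed length of all exons in place of the longest transcript, 28 and 19 receptors reached 1 per kilobase. Those at 10 or more fell from 10 to 7 in HepG2 and from 13 to 6 in SH-SY5Y. The ranks given here hold for the longest transcript. All exons of PPARG sum to 4535 bases against 2029, and those of HNF4A to 7311 against 6445, which puts PPARG below HNF4A in HepG2.

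**Figure D2:**
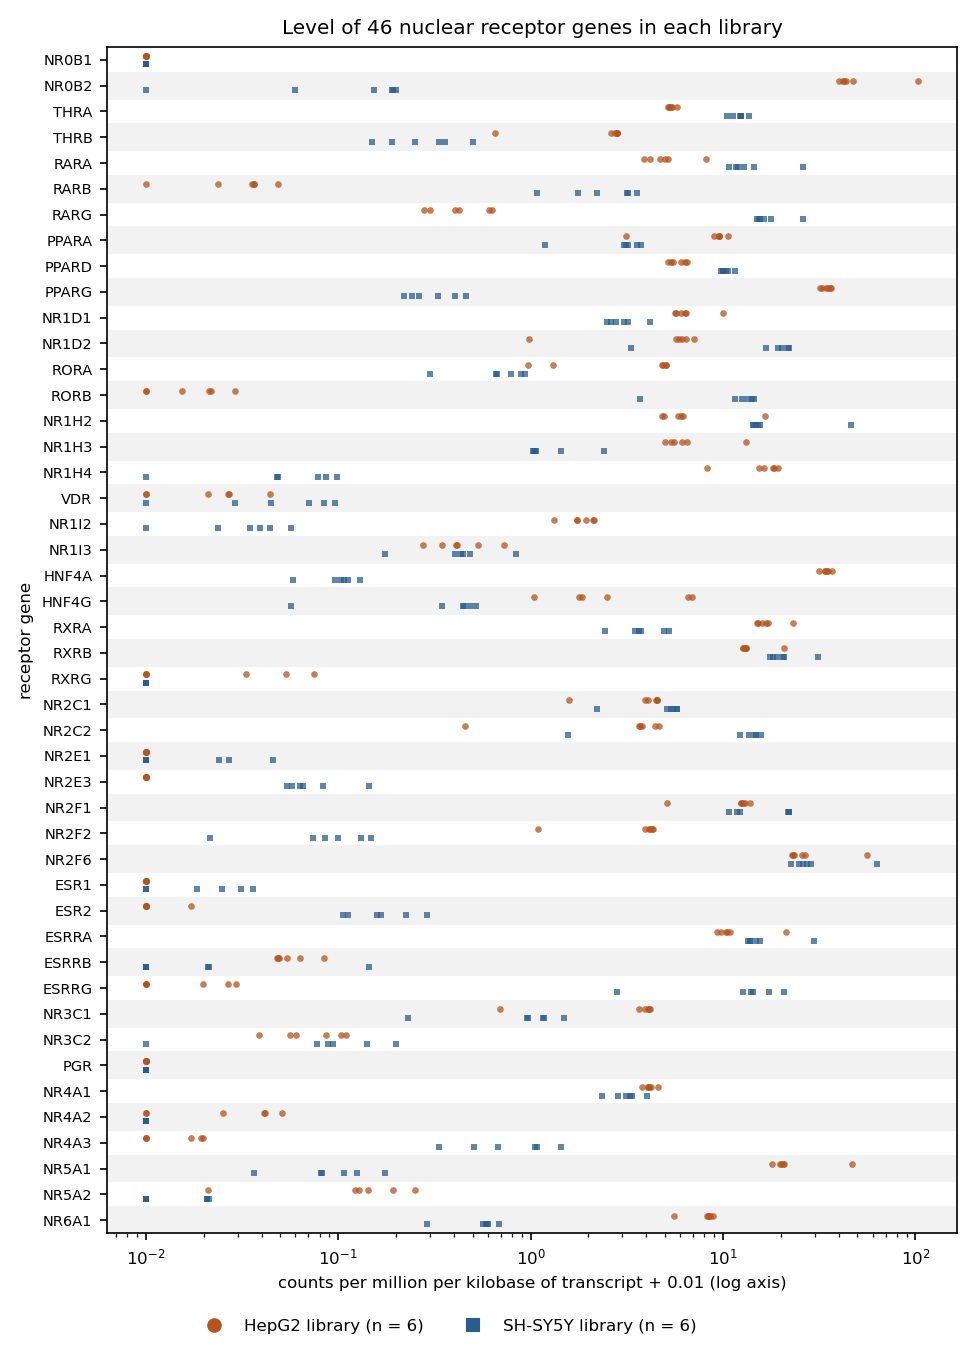
Level of each of the 46 receptor genes in every library, in CPM of the library total per kilobase of longest transcript plus 0.01 (horizontal, log axis), with 6 HepG2 libraries as circles and 6 SH-SY5Y libraries as squares. HNF4A, NR0B2 and PPARG lie above 30 in every HepG2 library and below 1 in every SH-SY5Y library, RORB and ESRRG lie above 2 in every SH-SY5Y library and below 0.1 in HepG2, and the ranges of NR2F6 and NR2F1 overlap between the lines.

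The main comparison asked which receptors differ between the lines, with control and EXACT1 libraries averaged. After the filter on low counts 39 receptors were tested, and 24 passed edgeR's quasi-likelihood test at a Benjamini-Hochberg adjusted p under 0.05. Of the 39, 18 (46.2%) were higher in HepG2, beside 28.5% of all genes tested, and 6 (15.4%) were lower, beside 36.3% of all genes tested. None of the 24 had overlapping libraries between the lines. The share of all called genes without overlap was not counted, so it cannot be said whether this is particular to receptors. The 7 receptors not tested were NR0B1, RXRG, NR2E1, NR2E3, ESR1, PGR and NR4A2. Because a receptor passes the filter through the line in which it is high, a receptor near 0 in the other line had to differ. Without the 2 libraries that stand apart, 35 of 41 tested receptors passed. Of these, 22 were higher in HepG2, beside 34.3% of all genes tested in that fit, and 13 were lower, beside 42.8%.

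The scale between the lines matters for small differences. The main test scales libraries by TMM, under which the median log2 fold change of all genes was -0.25, and the CPM values of receptors and listed genes given here use the TMM-scaled library size. Scaled by library totals alone, that median was -1.05, with 4183 genes higher and 11744 lower in HepG2 in place of 6268 and 7979. The receptor calls were then 18 higher and 13 lower, beside 19% and 53.4% of all genes tested. On that scale NR2F1, NR1I3, RXRB, ESRRA, NR2C1, NR2F6 and NR3C2, none of them called in the main test, turned from higher to lower in HepG2. All 24 called receptors kept their direction on that scale.

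**Figure D3:**
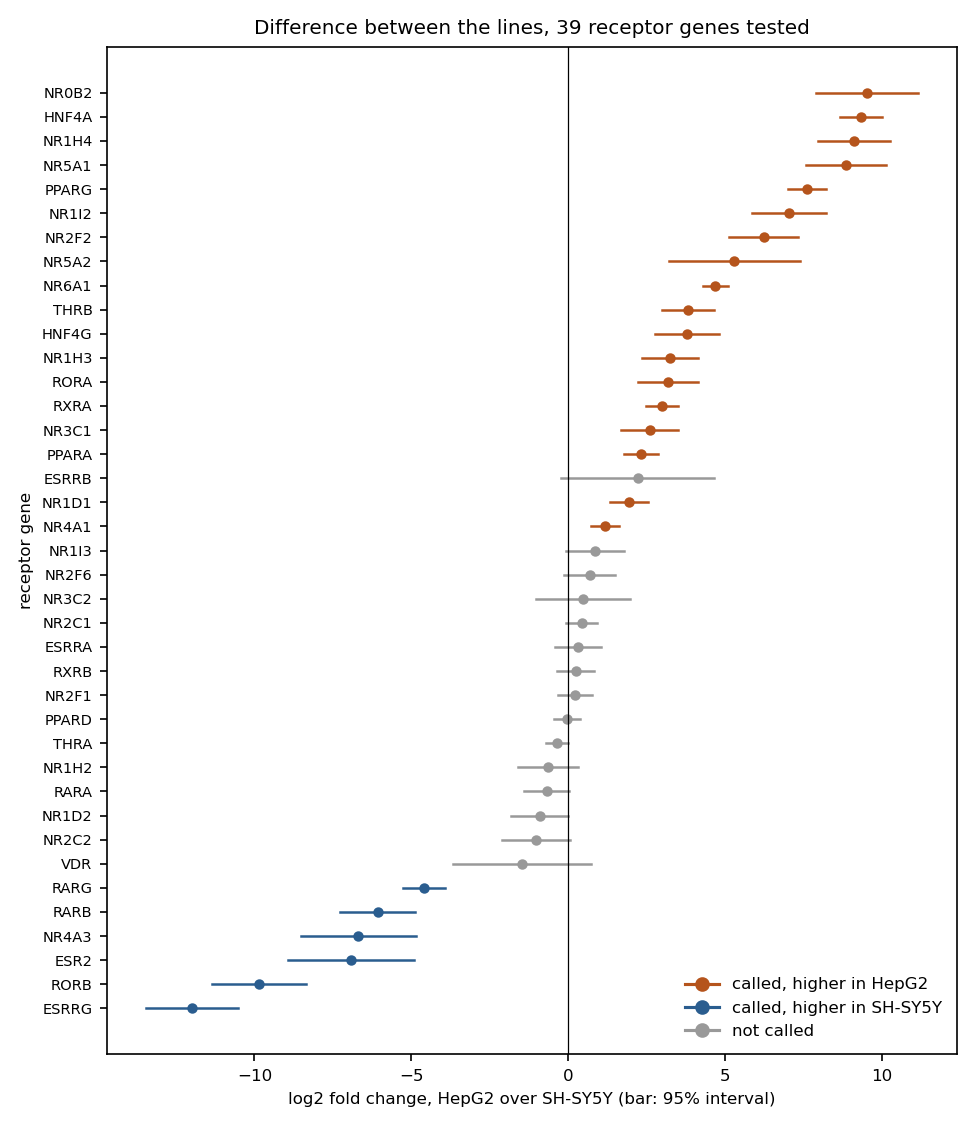
Log2 fold change of HepG2 over SH-SY5Y (horizontal) with its 95% interval for the 39 receptors tested in 12 libraries, in order of size and scaled by TMM. The called receptors run from NR0B2 at 9.54 to NR4A1 at 1.18 on the HepG2 side and from RARG at -4.61 to ESRRG at -11.99 on the SH-SY5Y side, and the 15 receptors that were not called include ESRRB at 2.22, above NR4A1.

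Of the receptors of bile acid, fatty acid and drug metabolism, HNF4A, HNF4G, NR1H4, NR0B2, NR1I2, PPARA and PPARG were called higher in HepG2, and PPARD and NR1I3 were not called. HNF4A, which sustains the hepatocyte gene programme, lay between 266 and 359 CPM in HepG2 (median 283) and from 0.219 to 0.582 in SH-SY5Y (median 0.464). Its log2 fold change was 9.34 (SE 0.30, adjusted p = 1.67e-09). Its relative HNF4G was lower and less even in HepG2, from 7.74 to 36.5 CPM (median 11.6), against 0.189 to 1.52 in SH-SY5Y, and its log2 fold change was 3.79 (SE 0.47, adjusted p = 3.15e-05). Both were higher in every HepG2 library than in any SH-SY5Y library.

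FXR (NR1H4), the bile acid receptor, lay between 42.0 and 67.5 CPM in HepG2 (median 61.9) and from 0 to 0.186 in SH-SY5Y. Its target and antagonist NR0B2 lay between 58.5 and 213 CPM in HepG2, the highest value in EXACT1 replicate 1 and the other 5 between 58.5 and 66.2, against 0 to 0.204 in SH-SY5Y. The log2 fold changes were 9.11 for NR1H4 (SE 0.52, adjusted p = 9.14e-08) and 9.54 for NR0B2 (SE 0.74, adjusted p = 8.98e-07). Bile acid receptor and corepressor were thus at or near 0 in the neuroblastoma line. In pooled counts NR1H4 had 64 counts in the 6 SH-SY5Y libraries against 20580 in HepG2, and NR0B2 61 against 27185.

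Drug sensing was split. The pregnane X receptor NR1I2, which induces drug-metabolising enzymes, was at 9.73 to 11.5 CPM in HepG2 (10.5 ± 0.74, SD, n = 6) and at 0 to 0.148 in SH-SY5Y (log2 fold change 7.05, SE 0.54, adjusted p = 7.89e-07). By library totals per kilobase NR1I2 was at 1.32 in HepG2 EXACT1 replicate 1 and at 1.73 to 2.13 in the other HepG2 libraries. Its partner in that task, the constitutive androstane receptor NR1I3, was low in both lines, at 0.502 to 1.88 CPM in HepG2 and 0.233 to 0.867 in SH-SY5Y, with overlapping libraries. The vitamin D receptor VDR of the same subgroup did not exceed 0.289 CPM in any library and was not called.

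Among the fatty acid receptors, PPARG, best known as the regulator of fat cells, was the highest of the 3 per kilobase in HepG2 and the lowest in SH-SY5Y. Its level was 78.6 to 131 CPM in HepG2 and 0.314 to 0.652 in SH-SY5Y (log2 fold change 7.62, SE 0.28, adjusted p = 4e-09). PPARA, the receptor of liver fatty acid oxidation, lay between 55.5 and 134 CPM in HepG2 and from 11.3 to 26.9 in SH-SY5Y, and was also called higher in HepG2. The widely expressed PPARD was 29.6 ± 7.32 CPM in HepG2 and 30.0 ± 5.94 in SH-SY5Y (SD, n = 6 each), and the 95% interval of its log2 fold change ran from -0.43 to 0.38. By library totals PPARD was lower in HepG2, at a log2 fold change of -0.84 (adjusted p = 0.000227).

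The oxysterol receptors also parted. NR1H3 (LXR alpha), the form of liver and macrophages, lay between 16.6 and 63.6 CPM in HepG2 and from 2.04 to 6.27 in SH-SY5Y and was called higher in HepG2. NR1H2 (LXR beta), the widely expressed form, overlapped between the lines at 14.4 to 69.8 and 24.6 to 106 CPM. In both genes the top value of each line came from the library that stands apart. Without those libraries NR1H2 was called lower in HepG2, at a log2 fold change of -0.61 (adjusted p = 1.27e-05).

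The RXR forms differed in their balance. RXRA lay between 106 and 237 CPM in HepG2 (median 117) and from 13.4 to 21.6 in SH-SY5Y (median 15.6), and was called higher in HepG2. RXRB overlapped, at 44.9 to 106.9 CPM in HepG2 and 36.6 to 87.2 in SH-SY5Y. RXRG, the form of muscle and some neurons, had 22 counts over the HepG2 libraries and none in SH-SY5Y. Per kilobase, RXRA made up 52.7% to 56.8% of the RXRA and RXRB sum in HepG2 and 7.19% to 23.0% in SH-SY5Y. RXRB was thus the larger part in every SH-SY5Y library. These shares use the longest transcript, of 5770 bases for RXRA and 2908 for RXRB. All exons sum to 11083 and 3920 bases, and with those lengths RXRA is the smaller part in HepG2 too.

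The retinoic acid receptors stood the other way round. RARG lay between 31.6 and 73.8 CPM in SH-SY5Y (median 34.8) and between 1.01 and 3.16 in HepG2 (median 1.45). The log2 fold change was -4.61 (SE 0.30, adjusted p = 2.83e-07). RARB, whose window above holds the direct repeat, lay between 3.17 and 7.98 CPM in SH-SY5Y and between 0 and 0.151 in HepG2 (log2 fold change -6.07, SE 0.54, adjusted p = 2.5e-06). All SH-SY5Y libraries were above all HepG2 libraries for both genes. RARA, the most widely expressed form, overlapped at 24.0 to 75.9 CPM in SH-SY5Y and 15.0 to 44.1 in HepG2 and was not called (log2 fold change -0.68, adjusted p = 0.0834); without the libraries that stand apart it was called lower in HepG2 (-0.62, adjusted p = 0.000393). Of the RARA and RARG sum per kilobase, RARA was 88.9% to 94.7% in HepG2 and 39.5% to 50.03% in SH-SY5Y.

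Of the thyroid hormone receptors, the less abundant form per kilobase differed. THRB, the main form of liver, lay between 8.47 and 25.9 CPM in HepG2 and from 0.937 to 2.69 in SH-SY5Y (log2 fold change 3.81, SE 0.37, adjusted p = 5.45e-06). The lowest HepG2 value was that of EXACT1 replicate 1, and the other 5 lay between 24.6 and 25.9. THRA, the main form of brain, was 31.1 to 46.4 CPM in HepG2 and 37.5 to 57.4 in SH-SY5Y and was not called (adjusted p = 0.0675). THRA and NR1D1 overlap by 1081 bases on opposite strands of chromosome 17, and, although the kit was stranded, the strand setting of the counting is not given in the sources used here, so reads of the shared stretch cannot be assigned with certainty.

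Among the receptors tied to the circadian clock, RORB was the clearest mark of SH-SY5Y. RORB, known from retina and brain, lay between 33.9 and 99.5 CPM in SH-SY5Y (median 89.7) and had 34 counts in all HepG2 libraries, 2 of which were at 0. The log2 fold change was -9.85 (SE 0.68, adjusted p = 3.95e-07), and the ratio of pooled counts per total was 1468 (95% interval 1050 to 2120, counting error only). RORA, its more widely expressed relative, was higher in HepG2, at 13.3 to 68.6 CPM against 3.04 to 7.06. RORA was low in HepG2 EXACT1 replicate 1 at 24.9 CPM and in control replicate 1 at 13.3 CPM, while the other 4 libraries lay between 63.5 and 68.6. RORA made up 99.1% to 100% of the RORA and RORB sum per kilobase in HepG2 and 4.47% to 7.43% in SH-SY5Y.

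The haem-binding repressors of the clock, REV-ERB alpha (NR1D1) and REV-ERB beta (NR1D2), were less clearly parted. NR1D1 was called higher in HepG2, at 18.9 to 49.4 CPM against 5.04 to 11.2. NR1D2 overlapped at 9.07 to 45.2 CPM in HepG2 and 16.7 to 84.5 in SH-SY5Y. Without the libraries that stand apart NR1D2 was lower in HepG2, at 37.5 to 45.2 CPM against 62.1 to 84.5 (log2 fold change -0.88, adjusted p = 3.8e-06).

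Among the steroid receptors measured here, NR3C1, NR3C2, ESR1, ESR2 and PGR, the glucocorticoid receptor NR3C1 had the highest level in both lines. NR3C1 lay between 8.87 and 38.2 CPM in HepG2 and from 1.54 to 7.65 in SH-SY5Y and was called higher in HepG2, where all libraries but EXACT1 replicate 1 were at 33.8 CPM or more. The mineralocorticoid receptor NR3C2 stayed under 1 CPM in both lines. The oestrogen receptor ESR2 had 387 counts in SH-SY5Y and 3 in HepG2, all 3 in 1 library, and was called at under 1 CPM on average (log2 fold change -6.91, SE 0.89, adjusted p = 0.000118). ESR1 had 33 counts in SH-SY5Y and 0 in HepG2, and the progesterone receptor PGR had none in any library, where 3 counts would be 0.0389 to 0.0454 CPM.

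The oestrogen-related receptors, orphans that drive genes of mitochondrial energy metabolism, differed between the lines in ESRRG. ESRRG lay between 14.8 and 81.6 CPM in SH-SY5Y (median 57.4) and between 0 and 0.132 in HepG2, where the 3 EXACT1 libraries had 0 counts and the control libraries 4, 7 and 8. The fitted log2 fold change was -11.99 (SE 0.65, adjusted p = 4.53e-07) and depends on how zeros are handled; the pooled counts were 32419 against 19, a ratio per total of 1794 (95% interval 1148 to 2980). ESRRA, the widely expressed form, overlapped between the lines at 27.0 to 86.1 CPM in HepG2 and 22.3 to 65.0 in SH-SY5Y. ESRRB, known from embryonic stem cells, did not exceed 0.484 CPM in any library. Of the ESRRA and ESRRG sum per kilobase, ESRRA was 99.8% or more in HepG2 and 40.1% to 91.4% in SH-SY5Y, with the highest share in control replicate 2.

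NR5A1 (GRCh38 chr9:124481236-124507430) and NR6A1 (chr9:124517275-124771310), neighbours 9844 bases apart on the reverse strand, were both high in HepG2. NR5A1 (SF1), the regulator of steroid hormone synthesis in adrenal and gonad, lay between 68.0 and 257 CPM in HepG2, of which the 5 libraries other than EXACT1 replicate 1 lay between 68.0 and 79.8, and between 0.060 and 0.495 in SH-SY5Y. Its log2 fold change was 8.86 (SE 0.58, adjusted p = 2.68e-07). NR6A1 (GCNF), known from germ cells and the early embryo, varied little within a line, at 69.4 to 76.0 CPM in HepG2 and 1.89 to 3.43 in SH-SY5Y (log2 fold change 4.70, SE 0.18, adjusted p = 3.59e-09). NR5A2 (LRH1), the relative known from liver bile acid synthesis, was low at no more than 1.48 CPM in HepG2 and 0 to 0.041 in SH-SY5Y, and NR5A1 made up 98.9% or more of their sum per kilobase in HepG2. The 6 markers of steroid-making cells, among them STAR and CYP11A1, summed to 3.29 to 8.79 CPM in HepG2, with 3 of 6 above 1 CPM and CYP11B1 at 0, and to 2.29 to 3.91 CPM in SH-SY5Y.

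In the COUP-TF group NR2F2 separated the lines, and NR2F1 and NR2F6 did not pass the test. NR2F2, known from veins and mesenchyme, lay between 10.1 and 28.7 CPM in HepG2 (median 27.0) and from 0.058 to 0.537 in SH-SY5Y (log2 fold change 6.23, SE 0.50, adjusted p = 1.22e-06). NR2F1 overlapped at 34.7 to 67.4 CPM in HepG2 and 29.2 to 62.5 in SH-SY5Y. Within SH-SY5Y, NR2F1 was at 29.2 CPM in control replicate 1, 32.4 in EXACT1 replicate 1 and 45.5 in control replicate 2. The other 3 libraries lay between 60.8 and 62.5 CPM. The 2 lowest libraries were 1 of each plasmid, both numbered replicate 1, and neither of them stood apart by its ribosomal protein share. RARB and NR4A3 were also lower in these 2 than in those other 3, whereas RXRA and ESRRG were higher. The cause was not tested. NR2F6 lay between 68.1 and 238 CPM in HepG2 and from 39.7 to 145 in SH-SY5Y.

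Of the NR4A receptors, which need no ligand and are induced within minutes of a stimulus, NR4A1 was present in both lines and NR4A3 in SH-SY5Y. NR4A1 was called higher in HepG2, at 23.2 to 34.9 CPM against 8.06 to 18.8, but not against a required log2 difference of 1 (adjusted p = 0.138) and not from the control libraries alone (adjusted p = 0.0539). NR4A3 lay between 1.78 and 5.98 CPM in SH-SY5Y and had 11 counts over the HepG2 libraries (log2 fold change -6.69, SE 0.83, adjusted p = 3.42e-05). The fitted value was -8.93 without the libraries that stand apart. NR4A2, the regulator of dopamine neurons, had no count in SH-SY5Y and 31 in HepG2. The orphan receptors NR2C1 and NR2C2 overlapped between the lines and were not called with all libraries.

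Without the 2 libraries that stand apart, 11 further receptors were called beside the 24. RXRB, ESRRA, NR2C1 and NR2F6 were higher in HepG2, with log2 fold changes of 0.23, 0.31, 0.44 and 0.73, each under 1 and each of the opposite sign when all libraries were scaled by their totals. THRA, NR1H2, RARA, NR1D2 and NR2C2 were lower in HepG2, with -0.38, -0.61, -0.62, -0.88 and -1.02. NR2E3 and ESR1, which had not been tested with all libraries, completed the list with 60 and 33 counts in SH-SY5Y and 0 in HepG2. The photoreceptor regulator NR2E3 was under 0.2 CPM in every library.

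Close relatives often bind the same sites, so the balance within subgroups was compared between the lines. Of 36 pairs of receptors that share a subgroup number, 22 had both members at a mean of 0.1 per kilobase or more in at least 1 line, and the log2 ratio per kilobase (with 0.1 added) was compared between 6 and 6 libraries by a two-sided exact permutation test, whose smallest p is 0.00216. After Benjamini-Hochberg adjustment 20 of the 22 pairs differed, 18 of them without overlap. In 12 of the called pairs the mean log2 ratio changed sign between the lines. Pairs of genes outside the family were not compared, while 28.5% and 36.3% of all single genes were called higher and lower in HepG2. Some pairs share a member, so the 22 are not independent results. The number of pairs called was again 20 without the 2 libraries that stand apart, but the sign changes were not all the same. NR1D1 over NR1D2 no longer changed sign, its HepG2 mean going from 0.50 to -0.05. NR1H2 over NR1H3 then did, from 0.02 to -0.04 in HepG2, and ESRRA over ESRRG, from 0.45 to -0.13 in SH-SY5Y. The sign also depends on the length used, as for RXRA over RXRB. A pair with a member near 0 in 1 line had to differ: in 12 of the 22 a member had a mean under 0.1 per kilobase in a line, and 11 of these were called. Of the 10 pairs with both members above that level in both lines, 9 were called, 7 of them without overlap. PPARD was 12.8% to 15.2% of its sum with PPARG in HepG2 and 95.9% to 97.9% in SH-SY5Y. NR1H2 was 44.1% to 55.7% of its sum with NR1H3 in HepG2 and 91.6% to 95.1% in SH-SY5Y. The pair RARA and RARB was called with 0.1 added (adjusted p = 0.00265, exact permutation test) and not with 1 added (0.331). The pair RARB and RARG was not called (adjusted p = 0.0680, exact permutation test) except with 1 added (0.0028), with the length of all exons (0.0476) or without SH-SY5Y EXACT1 replicate 2 (0.0363).

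**Figure D4:**
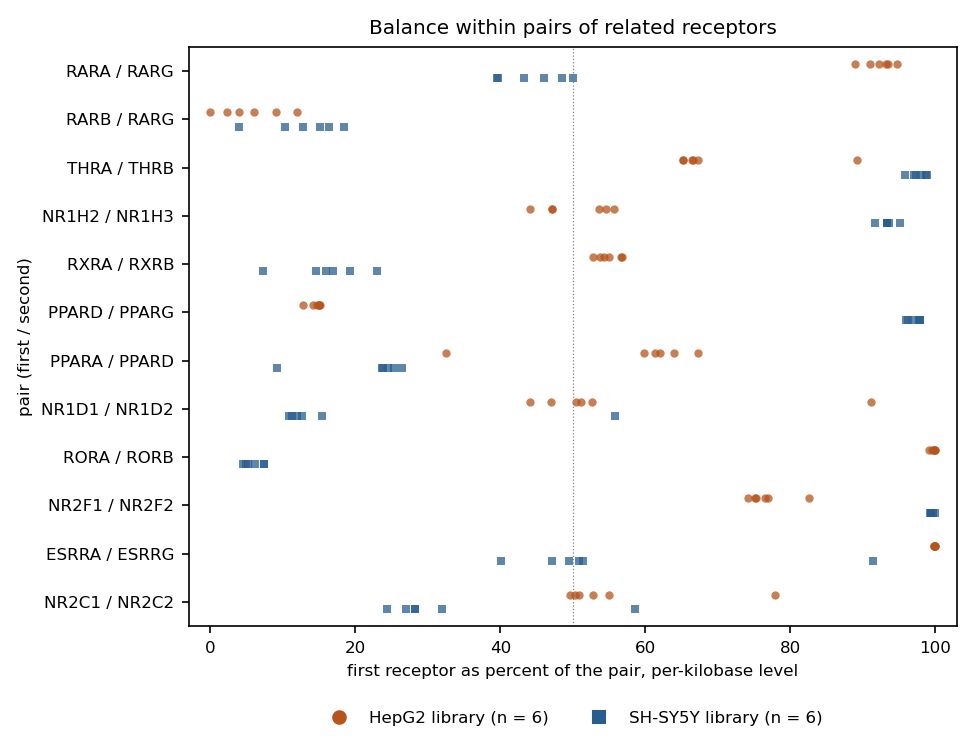
Share of the first receptor in the sum of a related pair, in percent of the per-kilobase level (horizontal), for 12 pairs in each of 6 HepG2 libraries (circles) and 6 SH-SY5Y libraries (squares). PPARD with PPARG, RORA with RORB and RXRA with RXRB change sides between the lines, while NR1D1 with NR1D2 and NR2C1 with NR2C2 overlap through 1 SH-SY5Y library. The level uses the longest transcript, and the side of RXRA with RXRB in HepG2 depends on that choice.

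Genes around the receptors were described by lists of cofactors, ligand supply and known targets, 156 genes in all, of which 138 were tested between the lines and 103 were called. Beside this stands the 28.5% and 36.3% of all genes called higher and lower. The median log2 fold change of all genes tested was -0.25. No set test was made, and the lists say nothing of which receptor acts on which gene.

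Of 18 coactivators, 4 were higher and 3 lower in HepG2 (median log2 fold change 0.13). PPARGC1A, the partner of PPARs and oestrogen-related receptors in energy metabolism, was 13.5 to 62.0 CPM in HepG2 and 0.073 to 0.423 in SH-SY5Y. NCOA1, a steroid receptor coactivator, was lower in HepG2, at 7.82 to 21.8 against 16.5 to 47.0 CPM. Of 10 corepressors, 4 were higher and 3 lower (median 0.16), among them NRIP1, a repressor of receptor-driven energy metabolism, at 20.5 to 104 CPM in HepG2 and 0.0997 to 0.403 in SH-SY5Y. Of 10 receptor chaperones 3 were higher and 3 lower (median -0.29), HSP90AB1 with a log2 fold change of 1.14 (SE 0.11) and FKBP4 with -1.24 (SE 0.23). Without the 2 libraries that stand apart the calls were 9 higher and 7 lower for coactivators, 5 higher and 4 lower for corepressors, and 3 higher and 6 lower for chaperones.

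Retinoid supply was divided between the lines. Of 12 tested genes, 5 were higher and 5 lower in HepG2 (median -0.44). The plasma retinol carrier RBP4 lay between 710 and 2621 CPM in HepG2 and from 0.578 to 1.91 in SH-SY5Y. The retinol importer STRA6 lay between 61.2 and 166 CPM in SH-SY5Y and between 0.313 and 0.802 in HepG2. The enzymes that make retinoic acid were exchanged, ALDH1A1 at 251 to 324 CPM in HepG2 and 0.355 to 0.640 in SH-SY5Y, and ALDH1A3 at 13.8 to 33.4 CPM in SH-SY5Y and 0 to 0.150 in HepG2.

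Retinoic acid receptor targets were mixed, with 3 of 8 tested genes higher and 4 lower in HepG2 (median -2.51). RET, a receptor kinase that retinoic acid induces in neuroblastoma, lay between 96.0 and 162 CPM in SH-SY5Y and between 0 and 0.251 in HepG2. The retinal reductase DHRS3, also on the supply list, lay between 51.2 and 235 CPM in HepG2 and from 0.135 to 0.355 in SH-SY5Y. MEIS2, a homeodomain factor, lay between 145 and 327 CPM in SH-SY5Y and between 5.99 and 15.3 in HepG2.

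Targets of the liver receptors were counted beside the hepatocyte markers, which summed to 98022 to 105313 CPM in HepG2 and 241 to 307 in SH-SY5Y. Of 12 listed HNF4A targets 10 were tested, and all 10 were called higher (median 9.66), for example the apolipoprotein gene APOA1 at 3268 to 16330 CPM against 3.39 to 7.40. Without the 2 libraries that stand apart 12 were tested and 11 were called, all of them higher. Of 6 FXR targets, 5 were higher and 1 lower (median 7.76), the bile acid exporter subunit SLC51A at 29.3 to 87.0 CPM against 0.279 to 0.635, and FGF19 lower at under 0.4 CPM in every library. FGF19 was the member of the FXR list that was not called without the 2 libraries that stand apart. Of 9 LXR targets, 7 were higher and 1 lower (median 2.99), the cholesterol exporters ABCA1 at 27.7 to 143 CPM against 0.480 to 2.44 and ABCG1 at 0 to 0.126 against 2.49 to 4.93.

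Of 11 PPAR targets, 7 were higher and 1 lower (median 1.75), with the lipid droplet protein PLIN2 at 1431 to 1904 CPM in HepG2 and 53.3 to 65.6 in SH-SY5Y. Of 7 targets of the drug-sensing receptors, 4 were higher and 1 lower (median 1.13), among them the exporter ABCC2 at 213 to 409 CPM against 0.578 to 1.48. Of 9 glucocorticoid receptor targets, 5 were higher and 1 lower (median 2.51), with the early gene DUSP1 at 76.4 to 105 CPM in HepG2 and 10.8 to 17.4 in SH-SY5Y and TSC22D3 at 0.148 to 1.34 against 22.4 to 25.2. TSC22D3 was thus lower in the line with more NR3C1.

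Clock targets of REV-ERB and ROR gave 3 higher and 2 lower of 9 (median -0.37), NFIL3 at 237 to 286 CPM in HepG2 and 11.3 to 18.8 in SH-SY5Y, and BMAL1, which REV-ERBs repress, at 3.01 to 6.56 against 21.1 to 35.5. Without the 2 libraries that stand apart 3 were higher and 5 lower. The list of other ligand supply, which holds the deiodinases of thyroid hormone, gave 6 higher and 7 lower of 14 (median -0.09). The activating enzyme DIO1 lay between 42.5 and 50.7 CPM in HepG2 and from 0 to 0.207 in SH-SY5Y. DIO2, also an activating enzyme, was at 0 in all HepG2 libraries and at 0.0437 to 0.517 CPM in SH-SY5Y. The inactivating enzyme DIO3 was at 0 in all HepG2 libraries and at 1.31 to 6.54 CPM in SH-SY5Y.

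Vitamin D receptor targets gave 2 higher and 1 lower of 3 tested (median 3.13), the vitamin D hydroxylase CYP24A1 having a median of 8.74 CPM in HepG2 and 0 in SH-SY5Y, while VDR in HepG2 was at 0.209 CPM or less. Oestrogen receptor targets gave 4 higher and 2 lower of 8 (median 1.09), GREB1 at 90.3 to 220.3 CPM in HepG2 and 58.8 to 112 in SH-SY5Y. In HepG2 ESR1 had no count and ESR2 had 3.

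EXACT1 was then compared with control within each line. In HepG2, 0 of 33 tested receptors passed (edgeR, adjusted p under 0.05), beside 0% of all 17139 genes tested, and 1 receptor had an unadjusted p under 0.05. DESeq2 and limma voom with sample weights called 0 receptors as well, and over all genes they called 10 and 1 against 0 with 164 at an unadjusted p under 0.05 in edgeR. The 95% interval of the log2 fold change lay within 1 in either direction for 8 of the 33 receptors, and for 26 of 33 without EXACT1 replicate 1, when 0 were called again. The other receptors could have changed by more than 2-fold without being seen. With all 6 libraries this test also missed changes planted in simulated counts. In a separate simulation without that replicate, with changes planted in newly drawn genes and less spread, it found most. The count of 0 therefore does not show that the receptors were unaltered.

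The smallest p in HepG2 belonged to HNF4G. Its level was 13.3, 36.5 and 33.8 CPM in control replicates 1, 2 and 3 and 7.74, 9.84 and 9.10 in EXACT1 replicates 1, 2 and 3. The EXACT1 libraries lay below all controls (log2 fold change -1.71, SE 0.42, p = 0.00536, adjusted p = 0.792). Control replicate 1 lay nearer to the EXACT1 libraries than to its own group. Without EXACT1 replicate 1 the value was -1.57, with a 95% interval from -3.23 to 0.09.

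RARG was next, at 1.01, 1.07 and 1.48 CPM in the controls and 3.16, 2.34 and 1.42 with EXACT1, overlapping between the plasmids (log2 fold change 0.87, SE 0.38, adjusted p = 0.792). NR1H2 was at 14.8, 14.4 and 16.8 CPM in the controls and 69.8, 18.8 and 17.5 with EXACT1 (log2 fold change 1.08, SE 0.53, adjusted p = 0.792), and at 0.22 with an interval from -0.03 to 0.48 once replicate 1 was left out. The high NR1H2 mean with EXACT1 thus came from 1 library. For the liver receptors without replicate 1, the intervals ran from -0.11 to 0.14 for HNF4A, from -0.10 to 0.23 for NR0B2 and from -0.19 to 0.23 for NR1H4. For RORA, of which control replicate 1 held 762 counts against 4092 and 4021 in the other controls, the interval ran from -2.23 to 3.01.

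In SH-SY5Y, 0 of 36 tested receptors passed (edgeR), beside 0% of all 19853 genes tested, and 0 had an unadjusted p under 0.05. DESeq2 and limma voom called 0 receptors too, and 9 and 1 of all genes, against 0 with 200 at an unadjusted p under 0.05 in edgeR. The interval lay within 1 for 5 of 36 receptors, and for 23 of 39 without control replicate 2, when 0 were called. The 3 smallest p-values belonged to short transcripts that were high in that library. NR1H3 was at 2.06, 2.05 and 2.04 CPM with EXACT1 and 2.74, 6.27 and 2.09 in the controls (log2 fold change -0.88, SE 0.46, adjusted p = 0.796). NR1H2 was at 25.3, 25.2 and 24.6 CPM with EXACT1 and 26.2, 106 and 26.5 in the controls (-1.11, SE 0.59, adjusted p = 0.796). ESRRA was at 22.6, 22.3 and 24.6 CPM with EXACT1 and 25.0, 65.0 and 23.1 in the controls (-0.73, SE 0.44, adjusted p = 0.796).

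Without control replicate 2 these differences shrank to -0.25 for NR1H3, -0.08 for NR1H2 and -0.07 for ESRRA. For the receptors that mark SH-SY5Y the intervals then ran from -0.16 to 0.30 for RORB, from -0.21 to 0.24 for RARG and from -0.59 to 0.61 for ESRRG. ESRRG was at 81.6, 51.4 and 57.6 CPM with EXACT1 and 67.9, 14.8 and 57.2 in the controls.

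**Figure D5:**
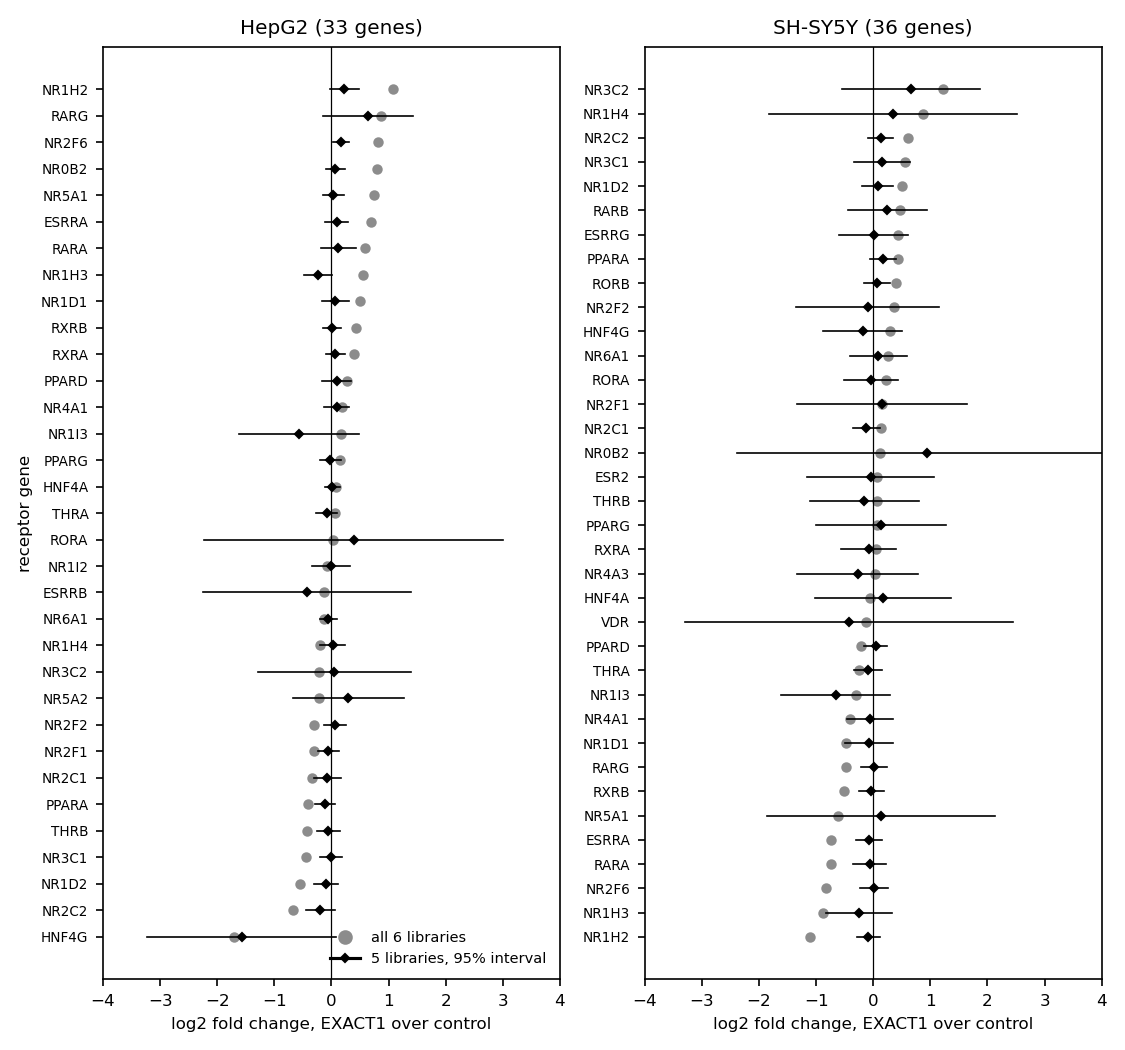
Log2 fold change of EXACT1 over control (horizontal) for the 33 receptors tested in HepG2 and the 36 in SH-SY5Y, with all 6 libraries of the line (grey circles) and without the library that stands apart (black diamonds with their 95% interval; the axis ends at 4, which cuts off the NR0B2 interval in SH-SY5Y). With all libraries NR1H2 lies at 1.08 in HepG2 and -1.11 in SH-SY5Y, and without the library that stands apart at 0.22 and -0.08.

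Whether the EXACT1 effect differed between the lines was tested as an interaction, and 0 of 39 receptors passed (edgeR), beside 0% of all 22009 genes. At an unadjusted p under 0.05 there were 6 receptors, ESRRG with the smallest (edgeR adjusted p = 0.487), whose value rests on HepG2 counts of 0 to 8. DESeq2 and limma voom called 0 receptors in this test, and 31 and 1 of all genes. Of the 156 genes on the cofactor, ligand and target lists, 0 of 124 tested were called with EXACT1 in HepG2 and 0 of 126 in SH-SY5Y (edgeR), and 0 in each had an unadjusted p under 0.05.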

How the data were processed

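The deposited table holds whole-number counts per gene for 18 libraries, of which the 12 of HepG2 and SH-SY5Y were used. The submitters' processing notes name the trimmer cutadapt, the aligner HISAT2, StringTie, and also edgeR with limma, and the build GRCh38 (hg38). Their versions and counting settings are not given. Among these deposited counts the value 4 occurred 12546 times, against 6493 for 3 and 3959 for 5, so low values are not plain read counts and every counting interval or limit is approximate. Those intervals cover counting error only.

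Counts were tested with edgeR 4.0.16 (R 4.3.3; filterByExpr, TMM, robust quasi-likelihood, Benjamini-Hochberg over all genes tested, threshold 0.05), the lines together for the line difference and the interaction and each line alone for EXACT1. A receptor pair was compared by an exact permutation test (SciPy 1.17.1). DESeq2 1.42.0, limma 3.58.1 voom, other scalings and filters, a replicate block and leaving libraries out were alternatives. Scripts were tested on simulated data: with the outlying library kept, the HepG2 EXACT1 test recovered none of the planted changes and the SH-SY5Y test few. In separate simulations without it, with other genes drawn and the spread of the libraries kept, most were recovered. Gene coordinates and lengths came from GENCODE 29, and sequences from RefSeq; protein sequences were not used here.

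The members and lists were chosen with earlier results of these data known. Full statistics were given for called receptors with no overlap between lines and at least 1 CPM in the higher line, up to 10 per direction, for the 3 smallest p-values per EXACT1 comparison, and up to 4 called genes per direction and list were named. Other receptors, ESR2 among them, and intervals for the line markers were chosen after their values were seen.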

Additional observations from a re-analysis of the deposited data

How the results depend on the processing

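The number of receptors called higher in HepG2 stayed within 1.5 times its value of 18 under every alternative. The number called lower, 6, was 10 with DESeq2, 11 with limma voom, 13 with library totals (chosen after seeing the data), 3 with a mean of at least 5 CPM, which tests fewer genes, and 13 without both outlying libraries. Leaving out 1 library at a time gave 6 to 11, with 11 without HepG2 EXACT1 replicate 1 and 10 without SH-SY5Y control replicate 2. The cause was not tested.

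The log2 fold changes that turned, none of them called in the main comparison, were with library totals -0.54 for NR2F1, -0.041 for NR1I3, -0.58 for RXRB, -0.49 for ESRRA, -0.37 for NR2C1, -0.12 for NR2F6 and -0.35 for NR3C2. From control libraries alone they were -0.28 for RXRB, -0.44 for ESRRA and -0.18 for NR2F6, and from EXACT1 libraries alone 0.19 for PPARD, 0.41 for NR1H2 and -0.24 for NR3C2. Leaving out 1 library at a time gave -0.16 to 0.068 for PPARD, -0.017 to 0.43 for RXRB and -0.026 to 0.61 for ESRRA. The cause was not tested.

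With the replicate number as a block, 18 receptors were called higher and 6 lower between the lines, and 0 in each EXACT1 comparison. Same-numbered EXACT1 and control libraries deviated together with r of 0.04, -0.08 and 0.14 in HepG2 and 0.42, 0.21 and -0.003 in SH-SY5Y. Not every library correlated best with its own number, but EXACT1 replicates 1 and 2 of SH-SY5Y did. The deviations include those of the libraries that stand apart, so these values do not settle whether the numbers pair the samples. All alternatives gave 0 called receptors for EXACT1 in either line and for the interaction. Receptors with few counts are also limited by depth.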
